A study of Mus musculus with 2 samples.

Results

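The primitive streak and mesoderm genes examined here were T (Brachyury), Eomes, Mixl1, Gsc, Mesp1, Lhx1, Tbx6 and Evx1, 8 of the 21755 protein-coding genes annotated on chromosomes 1 to 19 and X. They were chosen by name, with earlier results of these data known, and Nanog peaks were assigned to them by position. A peak counted for a gene when its middle base lay within 100 kb of the gene's transcription start site (TSS), or when that gene had the nearest protein-coding TSS. By these rules 14 of the 8737 distinct peaks belonged to the 8 genes. The peaks came from ChIP-seq with the D1G10 anti-Nanog antibody in Bruce-4 mouse embryonic stem cells (ESCs), a single cell line grown in serum medium with leukaemia inhibitory factor. The study had 1 immunoprecipitated sample and 1 input sample of the same cells, with no genetic change and no treatment given in the labels. Only the immunoprecipitated sample has values here, as a list of peak positions. With 1 sample there is no replicate error and no test, the list holds neither peak strength nor read depth, and intervals cover counting error only.

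The primitive streak is the structure of the gastrulating embryo through which epiblast cells leave to form mesoderm and endoderm. It is induced by Nodal, Wnt and BMP signals, which switch on T-box and homeobox transcription factors, and these genes are kept low in undifferentiated ESCs. Nanog is a homeodomain transcription factor that holds ESCs in the undifferentiated state. A peak marks where its binding passed the threshold of the peak call and does not tell whether a gene is active or silent.

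For each of the 6 genes with a peak within 100 kb, the closest peak is printed here, so that the bound sequence can be read beside its position. Sequences are the plus strand of GRCm38 from RefSeq (the assembly that mm10 denotes), and peaks wider than 300 bp are given as the 300 bases around their middle base. Capitals mark matches, on either strand, to 12 consensus motifs, which are listed with the motif results.
T, chr17:8389102-8389401: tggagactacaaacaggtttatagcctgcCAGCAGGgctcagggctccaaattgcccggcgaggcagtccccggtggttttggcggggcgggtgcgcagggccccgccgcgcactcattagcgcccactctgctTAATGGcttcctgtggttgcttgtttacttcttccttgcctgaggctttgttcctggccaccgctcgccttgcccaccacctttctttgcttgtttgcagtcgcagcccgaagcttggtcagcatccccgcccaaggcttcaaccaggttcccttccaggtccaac
Eomes, chr9:118537750-118538049: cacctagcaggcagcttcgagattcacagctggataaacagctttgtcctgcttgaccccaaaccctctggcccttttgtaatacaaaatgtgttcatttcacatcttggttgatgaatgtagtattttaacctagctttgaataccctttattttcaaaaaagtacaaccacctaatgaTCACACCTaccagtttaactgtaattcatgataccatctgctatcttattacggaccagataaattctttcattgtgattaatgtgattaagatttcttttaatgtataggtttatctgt
Mixl1, chr1:180606833-180607126: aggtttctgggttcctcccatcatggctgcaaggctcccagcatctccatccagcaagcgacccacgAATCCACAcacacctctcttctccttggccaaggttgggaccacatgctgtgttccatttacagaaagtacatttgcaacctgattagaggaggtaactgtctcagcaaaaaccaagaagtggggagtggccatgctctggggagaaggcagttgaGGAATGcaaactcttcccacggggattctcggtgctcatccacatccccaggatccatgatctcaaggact
Gsc, chr12:104453320-104453615: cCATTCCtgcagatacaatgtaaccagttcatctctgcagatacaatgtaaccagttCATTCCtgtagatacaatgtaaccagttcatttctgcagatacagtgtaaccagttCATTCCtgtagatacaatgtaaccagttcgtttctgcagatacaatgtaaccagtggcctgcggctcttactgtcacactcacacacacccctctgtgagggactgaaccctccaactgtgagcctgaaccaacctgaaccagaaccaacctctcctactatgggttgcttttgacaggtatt
Mesp1, chr7:79771780-79772079: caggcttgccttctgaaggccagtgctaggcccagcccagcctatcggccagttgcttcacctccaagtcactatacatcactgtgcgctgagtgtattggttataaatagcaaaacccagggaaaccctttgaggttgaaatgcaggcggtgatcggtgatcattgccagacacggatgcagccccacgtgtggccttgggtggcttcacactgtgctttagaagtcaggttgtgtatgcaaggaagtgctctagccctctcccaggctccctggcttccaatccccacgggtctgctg
Evx1, chr6:52314784-52315083: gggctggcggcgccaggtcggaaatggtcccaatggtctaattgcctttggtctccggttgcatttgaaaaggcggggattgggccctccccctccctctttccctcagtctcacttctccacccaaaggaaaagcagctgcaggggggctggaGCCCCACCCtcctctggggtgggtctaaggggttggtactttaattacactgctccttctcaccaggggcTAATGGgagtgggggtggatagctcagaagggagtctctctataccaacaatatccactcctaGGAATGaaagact

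Nanog peaks were found within 100 kb of 6 of the 8 genes, namely Gsc (4 peaks), Evx1 (3), Mesp1 (2), T (1), Eomes (1) and Mixl1 (1). Lhx1 and Tbx6 had none. Among all protein-coding genes, 54.8% (95% Clopper-Pearson interval 54.2 to 55.5) had a peak at that distance, so 6 of 8 lies not far from the background. Only Evx1 had a peak within 10 kb of its TSS, as did 10.6% of protein-coding genes. The median distance from the TSS to the closest peak was 52.4 kb over the 8 genes and 85.3 kb over all protein-coding genes, with quartiles of 30.7 and 203 kb for the latter. In all, 12 peaks lay in the windows, or 1.5 per gene against a mean of 1.00 for a protein-coding gene. The median was 1 peak both for the 8 genes and for all protein-coding genes. The innermost peak beyond the limit lay 126 kb from Mixl1, and the outermost within it lay 96.0 kb from Gsc.

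**Figure D1:**
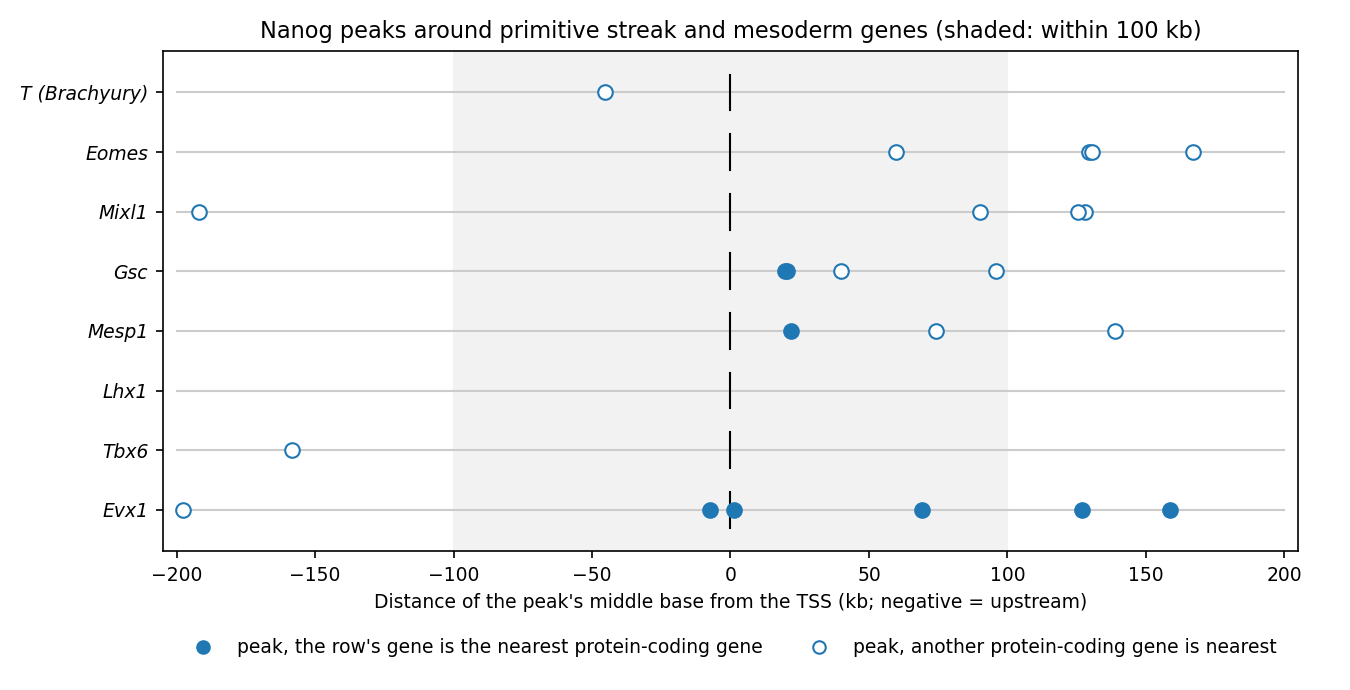
Each row is a gene, drawn in its direction of transcription with the TSS at 0 (black bar), and each circle is a Nanog peak placed by the distance of its middle base in kb, out to 200 kb. Filled circles, where the gene of the row has the nearest protein-coding TSS, occur for Gsc (2 peaks that overlap at this scale), Mesp1 (1) and Evx1 (5), and the shaded 100 kb hold no circle for Lhx1 and Tbx6.

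Among the 3 T-box genes, T and Eomes each had a single distant peak and Tbx6 had none. T (ENSMUSG00000062327.10, chromosome 17, 8434423 to 8442496, plus strand) encodes Brachyury, the founding T-box factor of streak and notochord. Its peak, chr17:8389071-8389432, was 362 bp wide and lay 45.2 kb upstream of the TSS. It lay within the body of T2, whose TSS on the far side was nearer at 33.3 kb. The middle of this peak fell in an exon of the lincRNA gene Gm16702, 217 bp from the start of that gene. The peak nearest to Brachyury is thus at the start of a long noncoding RNA gene on the opposite strand, at chromosome 17, 8379045 to 8389468.

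Eomes (ENSMUSG00000032446.14, chromosome 9, 118478212 to 118486132, plus strand) encodes a T-box factor needed for definitive endoderm and for mesoderm to leave the streak. Its peak, chr9:118537517-118538281, lay 59.7 kb downstream of the TSS in an intron of Golga4, whose TSS was nearer at 31.6 kb. At 765 bp it was the widest of the 14 peaks, ranked 47 by width among 8735 peaks, and was the single one of them listed on 2 lines. A further 3 peaks lay 129.6 to 167 kb downstream of Eomes, all nearest to Itga9.

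Tbx6 (ENSMUSG00000030699.16, chromosome 7, 126781483 to 126785560, plus strand) encodes the T-box factor of presomitic mesoderm. Its closest peak lay 158 kb upstream, 7.72 kb from the TSS of Nupr1 and with 9 other protein-coding TSSs in between. The surroundings of Tbx6 were crowded with genes, with 14 other protein-coding TSSs within 100 kb. The stretch to which its TSS was the nearest measured 7.77 kb, against a median of 47.1 kb for protein-coding genes, and 94.9% of those had a longer one.

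The 4 homeobox genes differed most among themselves, from 5 nearest peaks at Evx1 to none within 200 kb of Lhx1. Evx1 (ENSMUSG00000005503.8, chromosome 6, 52313498 to 52318378, plus strand) encodes an even-skipped type factor of the posterior streak and lies at the 5' end of the HoxA cluster. Its closest peak, chr6:52314644-52315223, was 580 bp wide, lay 1435 bp downstream of the TSS in an intron, and was centred 101 bp from the start of the antisense gene Evx1os. A further peak, chr6:52305953-52306541, was 589 bp wide and lay 7251 bp upstream, between Evx1 and Hoxa13. Both ranked high by width, at 295 and 265 of 8735, and formed a pair separated by 8.10 kb. Of protein-coding genes, 2.85% had a peak closer to the TSS than Evx1.

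Evx1 was also the nearest protein-coding gene of 3 peaks in the gene-poor stretch beyond its 3' end. They lay 69.0 kb, 127 kb and 159 kb downstream, at chr6:52382410-52382662, chr6:52440192-52440664 and chr6:52472017-52472469, and were 253, 473 and 453 bp wide. The next protein-coding TSS on that side, Hibadh, was 327 kb away from the TSS of Evx1, and Evx1 had the nearer TSS at each of the 3 peaks. With 5 nearest peaks Evx1 was among the 0.731% of protein-coding genes that had 5 or more. It was nearest to 3 peaks when the TSS of every transcript was used or when the nearest TSS had to lie within 100 kb, and to 1 among all annotated genes. The length of the stretch to which Evx1 was nearest, 189.8 kb, was exceeded by that of 14.6% of protein-coding genes.

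Gsc (ENSMUSG00000021095.5, chromosome 12, 104471209 to 104473330, minus strand) encodes goosecoid, the homeobox factor of the anterior streak and organizer. All 4 of its peaks lay downstream, beyond the 3' end of the gene, and at least 4 peaks within 100 kb were found for 4.73% of protein-coding genes. Merging peaks within 300 bp of each other left Gsc with 3 peaks, of which it was nearest to 1. The closest, chr12:104453320-104453615, lay 19.9 kb from the TSS and was 296 bp wide. Its neighbour, chr12:104452954-104453236, was 283 bp wide and lay 20.2 kb from the TSS, leaving 83 bp between the peaks. These were the peaks for which Gsc was the nearest gene, also among all annotated genes. The other peaks, at 39.9 kb (469 bp wide) and 96.0 kb (280 bp wide), were nearer to the TSS of Serpina3n, and the latter lay in an intron of Serpina3m with 70.0% of its bases soft-masked as repeats.

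The closest Gsc peak held a tandem repeat, which is visible in the printed sequence. At shifts of 5 to 100 bp against itself, most bases were equal (57.8%) at 28 bp, and at a shift of 56 bp an unbroken run of 40 bases matched. In the other 5 printed sequences the best shift gave 30.9% to 35.4% equal bases. The 3 Tead matches of this peak, CATTCC on the plus strand, began at 104453321, 104453377 and 104453433, spaced by that shift of 56 bp, and are not independent sites.

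Mixl1 (ENSMUSG00000026497.7, chromosome 1, 180693043 to 180697034, minus strand) encodes a paired-type homeobox factor induced by Nodal and BMP signals in the streak. Its one peak within the limit, chr1:180606833-180607126, was 294 bp wide and lay 90.1 kb downstream of the TSS, past the TSS of Lin9, to which it was nearer at 34.2 kb. On the other side, 192 kb upstream of Mixl1, a 982 bp wide peak lay 4.20 kb from the TSS of Lefty2, the Nodal inhibitor. Lhx1 (ENSMUSG00000018698.15, chromosome 11, 84518284 to 84525535, minus strand) encodes a LIM homeobox factor of anterior mesendoderm. Its closest peak, 419 bp wide at chr11:84276968-84277386 in an intron of Acaca, lay 248 kb away, and 80.2% of protein-coding genes had a peak closer to the TSS. The stretch to which the TSS of Lhx1 was nearest measured 153 kb, longer than the median, and held no peak.

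Mesp1 (ENSMUSG00000030544.5, chromosome 7, 79792241 to 79793788, minus strand) encodes the basic helix-loop-helix factor of early cardiac mesoderm, next to its paralogue Mesp2. The closest peak, chr7:79771739-79772119, was 381 bp wide and lay 21.9 kb downstream in an intron of Wdr93. Mesp1 had the nearest protein-coding TSS, and a processed pseudogene, Gm44705, lay closer at 18.7 kb. The other peak, chr7:79719258-79719546, was 289 bp wide and lay 74.4 kb downstream, 3.68 kb from the TSS of Kif7. Both peaks were also within 100 kb of Mesp2, whose TSS was 38.8 kb from the closer one, so positions alone cannot assign them to either paralogue.

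Considered together, 3 of the 8 genes (Gsc, Mesp1 and Evx1) were the nearest protein-coding gene of a peak, beside 24.6% of all protein-coding genes (interval 24.0 to 25.2). Of the 12 peaks in the windows, 6 had one of the 8 genes as the nearest and 6 had another gene (T2, Golga4, Lin9, Kif7, and Serpina3n for 2 of them). Over all pairs of a protein-coding gene and a peak within 100 kb, the gene was the nearest in 30.3%. At least 3 peaks within 100 kb were found for 2 of the 8 genes (Gsc and Evx1) and for 11.4% of protein-coding genes. By side, 10 of the 12 peaks were downstream of the TSS and 2 upstream, whereas 51.1% of all such pairs had the peak upstream. The 10 downstream peaks include 4 of Gsc alone and are few, and no test of this difference was made.

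**Figure D2:**
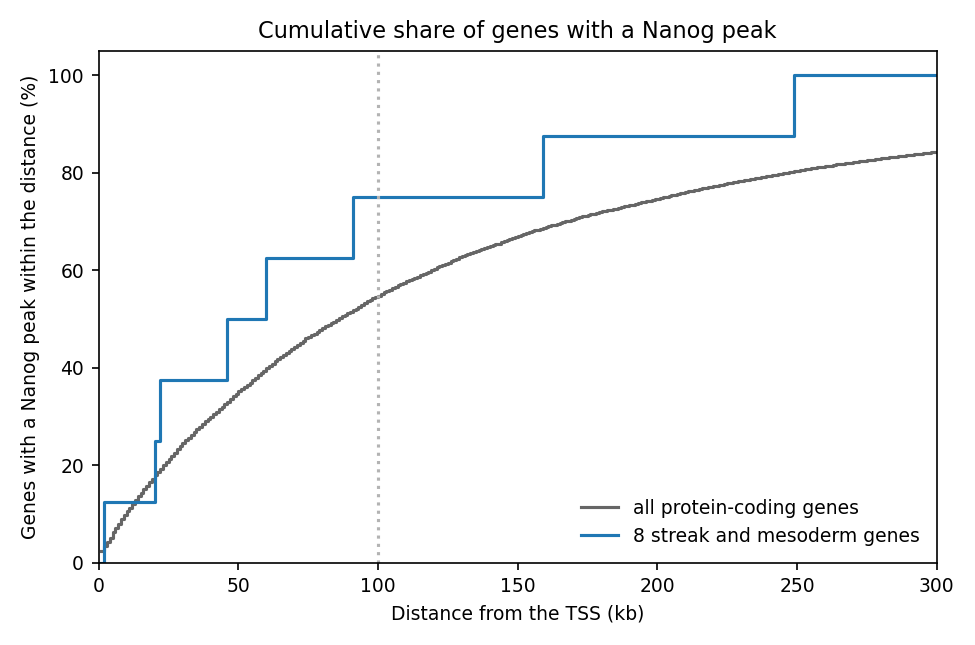
The horizontal axis is the distance from the TSS in kb and the vertical axis the percentage of genes with a Nanog peak within it, in steps of 1 kb, for the 8 streak and mesoderm genes (blue) and all protein-coding genes (grey). At the dotted line of 100 kb the lines stand at 6 of 8 genes and at 54.8%, and each step of the blue line is a single gene.

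By the nearest rule, the stretch of chromosome to which a TSS is the nearest limits where the peaks of a gene can lie. It measured 189.8 kb for Evx1, 178 kb for Eomes, 173 kb for Gsc and 153 kb for Lhx1, and of these Evx1 and Gsc held peaks. It was 84.7 kb for T, 42.4 kb for Mixl1, 33.8 kb for Mesp1 and 7.77 kb for Tbx6, and of these only that of Mesp1 held one. Both long and short stretches were without a peak, and a relation of length to the number of peaks was not tested. The number of other protein-coding TSSs within 100 kb was 1 for Eomes, Gsc and Lhx1, 2 for Mixl1, 3 for T, 5 for Evx1 and 6 for Mesp1, against the 14 of Tbx6.

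The motifs searched were those of factors that share sites with Nanog in ESCs and of factors that act in the streak. They were the Oct4-Sox2 composite with at most 2 mismatches, the Oct octamer ATGCAAAT, Sox CCATTGT or CCTTTGT, the Nanog core CCATTA, Klf (GCCACACCC or GCCACGCCC or GCCCCACCC or GCCCCGCCC), Esrrb TCAAGGTCA, the T-box site AGGTGTGA, Tcf/Lef CTTTGAT, Foxh1 TGTGGATT, the bicoid-type site TAATCC bound by goosecoid, Zic CAGCAGG and Tead GGAATG. Both strands were read, the octamer lies within the composite, and Sox and Tcf/Lef share the letters CTTTG. A match is a stretch of letters and not evidence of a bound factor.

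Of the motifs of pluripotency factors, the Nanog core was the most frequent in the 14 peaks, whereas Sox letters were in all peaks. Counts over whole peaks were not adjusted for width. The median width was 372 bp for the 14 peaks and 319 bp for all peaks. The composite, the octamer and Esrrb were in none of the 14. By the approximate rule that a count of 0 allows up to 3, 0 of 14 allows a share of up to 21.4%. Of all peaks, the composite was in 1.40%, the octamer in 5.72% and Esrrb in 3.53%, so that 14 peaks could not show a difference. With at most 3 mismatches the composite was in 8.75% of all peaks and in 1 of the 12 peaks within 100 kb. Sox letters, in 28.2% of all peaks, were in 2 of the 14, once at Gsc and in 2 copies at Eomes. The Nanog core was in 5 of the 14 (T, the 96.0 kb peak of Gsc and 3 peaks of Evx1), against 18.1% of all peaks. Among the 12 peaks within 100 kb, it was in 3 over the whole width and in 2 in the 200 bp around the middle base. Of all peaks, 11.7% held it in those 200 bp. Klf letters were in 1 peak of Gsc and 1 of Evx1, against 9.0% of all peaks.

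In the Brachyury peak the Nanog core match began at 8389236, centred 12 bp from the middle of the peak. In the closest Evx1 peak a Klf match, GCCCCACCC, was centred 9 bp from the middle and a Nanog core match 78 bp from it. The pair at Gsc differed, since the peak at 20.2 kb held a Sox match, ACAAAGG, 26 bp from its middle, beside Zic and Tead matches, and the closest peak held Tead matches alone.

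Of the motifs of streak factors, T-box, Foxh1, Tcf/Lef and the bicoid-type site were each in 1 of the 14 peaks. A match to at least 1 of these motifs was in 3 of the 14 peaks and in 22.9% of all peaks. The Eomes peak carried the only T-box match, TCACACCT on the plus strand, 35 bp from its middle, and 2.87% of all peaks had one. The Mixl1 peak carried the only Foxh1 match, AATCCACA, and 1.69% of all peaks had one. Foxh1 is the DNA-binding partner of Smad proteins in Nodal signalling. The farthest Evx1 peak, 159 kb downstream, carried the only Tcf/Lef match and the only bicoid-type match, found in 9.10% and 11.8% of all peaks. Tead letters were the most frequent, in 6 of the 14 peaks and in 25.4% of all peaks, and Zic letters were in 3 and in 23.6%. Among the 12 peaks within 100 kb, Tead letters were in 5 over the whole width and in 3 in the 200 bp around the middle base. Of all peaks, 16.2% held them in those 200 bp.

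Of the 14 peaks, 4 held none of the 12 motifs, namely both Mesp1 peaks and the Evx1 peaks at 7.25 kb upstream and 69.0 kb downstream. Among all peaks, 79.6% held at least 1. The peaks without a match included the upstream peak of Evx1, which at 589 bp was wider than all but 1 of the 14.

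**Figure D3:**
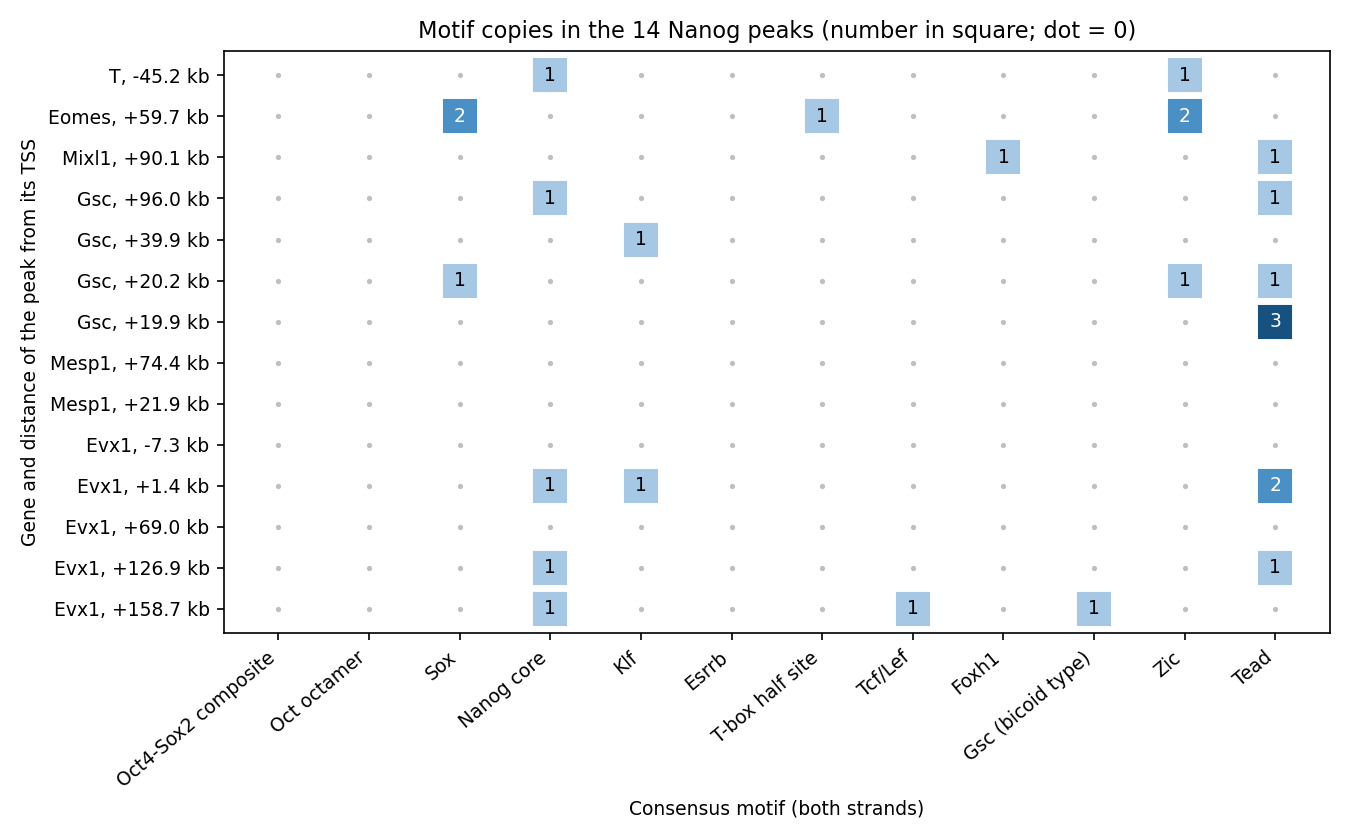
Rows are the 14 peaks, named by gene and signed distance from its TSS in kb, and columns are the 12 consensus motifs, with the number of copies in each square and a dot for 0. The composite, octamer and Esrrb columns are empty, as are both Mesp1 rows, and the 3 Tead copies of the closest Gsc peak lie in its tandem repeat.

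The 14 peaks were 253 to 765 bp wide with a median of 372 bp, against a median of 319 bp and quartiles of 265 and 393 bp for all peaks. Above the upper quartile were 6 of them, at Evx1 (4), Eomes and Gsc. Width is not a measure of binding strength. Their GC content ranged from 39.4% at the farther Mesp1 peak to 58.8% at the Brachyury peak, with a median of 48.7% against 47.7% for all peaks. By annotation at the middle base, 9 were intergenic, 4 intronic (in Golga4, Serpina3m, Wdr93 and Evx1) and 1 in a noncoding exon (Gm16702). Of all peaks, 46.3% were intergenic, 47.5% intronic and 2.45% in noncoding exons. More than 50% of the bases were soft-masked in 3 of the 14 (1 of Gsc, 2 of Evx1), and in 14.8% of all peaks.

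Of 12 other streak genes, which code for signals and further factors, 10 had a peak within 100 kb, beside 54.8% of protein-coding genes. A peak within 10 kb was found for 6 of them, beside 10.6% of protein-coding genes. These were Nodal (1.94 kb), which induces the streak, Snai1 (2.09 kb), which drives the epithelial to mesenchymal transition there, Cdx2 (2.87 kb), Fgf8 (3.32 kb), Lefty2 (4.20 kb) and Bmp4 (4.55 kb). The median closest distance was 7.33 kb, against 52.4 kb for the 8 genes and 85.3 kb for all protein-coding genes. The list of other streak genes was also chosen with earlier results of these data known.

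The lists of later mesoderm genes had longer median distances than that list. Of 10 presomitic and paraxial genes 8 had a peak within 100 kb and 2 within 10 kb, beside 54.8% and 10.6% of protein-coding genes. Their median closest distance was 38.6 kb. The closest were at Dll1 (3.96 kb), a Notch ligand, Msgn1 (7.70 kb) and Dll3 (12.3 kb). Of 11 lateral plate, cardiac and blood genes 6 had a peak within 100 kb, close to the 54.8% of protein-coding genes, and the median was 83.0 kb. None had a peak within 10 kb, beside 10.6% of protein-coding genes. The closest there were at Etv2 (35.7 kb), Tbx20 (44.5 kb) and Lmo2 (62.6 kb).

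Of the 14 other T-box genes, 7 had a peak within 100 kb and 1 within 10 kb, beside 54.8% and 10.6% of protein-coding genes. The median closest distance of the 14 was 99.7 kb. Tbx3, which also belongs to the pluripotency network of ESCs, had the closest peak of them at 9.48 kb and was nearest to 7 peaks. Tbx4 (14.2 kb) and Mga (39.6 kb) followed. For scale, 12 of 13 pluripotency transcription factor genes had a peak within 100 kb, 9 had one within 10 kb, and their median closest distance was 4.87 kb. Counted gene by gene, 51 peaks lay within 100 kb of the 13 genes, where the 8 streak and mesoderm genes had 12. The closest distances within 10 kb were 0.172 kb for Zfp42, 1.02 kb for Pou5f1, 1.09 kb for Prdm14, 1.31 kb for Tfcp2l1, 2.73 kb for Klf2, 3.68 kb for Sox2, 4.87 kb for Nanog, 5.16 kb for Sall4 and 9.48 kb for Tbx3. The lists are of unequal size and were not tested against each other.

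**Figure D4:**
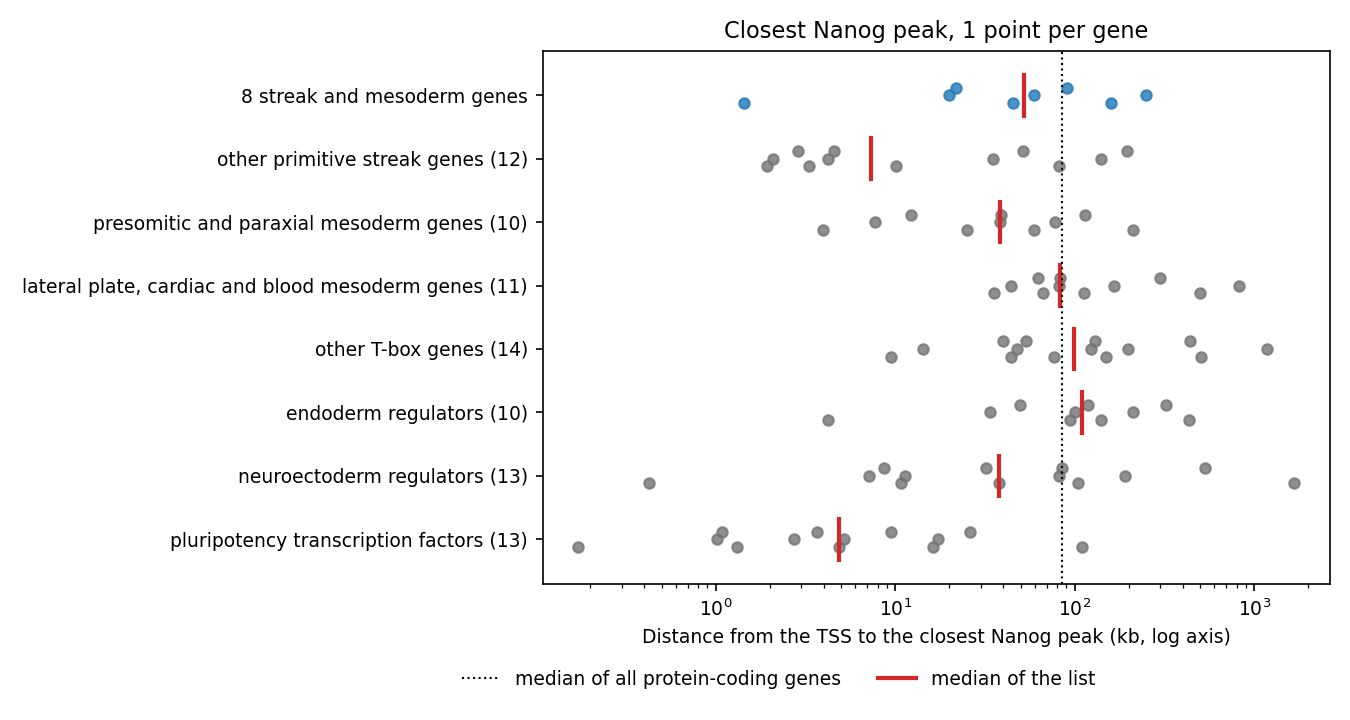
Each point is a gene, placed on a log axis by the distance in kb from its TSS to the closest Nanog peak, with a red bar at the median of its list and a dotted line at the median of all protein-coding genes (85.3 kb). The 8 streak and mesoderm genes spread from 1.44 kb (Evx1) to 248 kb (Lhx1), with a median of 52.4 kb, between those of the pluripotency factors (4.87 kb) and the other T-box genes (99.7 kb).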

How the data were processed

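Nanog ChIP-seq was measured in 1 sample of Bruce-4 ESCs, with 1 input. Per the labels and the methods of the study, reads were inspected with FastQC and aligned to mm10 with Bowtie2, filtered with BEDtools and SAMtools, and used for peak calling with MACS2. The threshold of the call is not given in the sources used here. The authors deposited chromosome, start and end of each peak, without score, fold enrichment, p-value or summit, so the deposited list does not give the depth behind a peak, and peaks near the threshold cannot be recognised. The input was not analysed here.

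The 8860 lines were reduced to 8737 distinct intervals, of which the 8735 on chromosomes 1 to 19 and X were compared with gene positions. Of these, 8644 had a nearest protein-coding gene within 1000 kb. Genes came from GENCODE vM21, the TSS was the 5' end of the annotated gene, distance ran from the middle base of a peak, and the nearest gene was sought up to 1000 kb away. Sequence was read from GRCm38 with samtools 1.23.1 and pysam 0.24.0. Counting and motif search were first tested on simulated positions and sequences. Shares over all protein-coding genes carry exact 95% Clopper-Pearson intervals computed with SciPy 1.17.1.

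The genes, gene lists and motifs were chosen with earlier results of these data known. Named outside the 8 genes are the protein-coding genes nearest to their peaks and, of each other list, the genes with a peak within 10 kb and the 3 with the closest peaks, apart from items not reported here. Alternatives changed the distance limit, the point of the peak, the TSSs, the genes, merging within 300 bp, repeated lines, width, the searched sequence and the mismatches of the composite.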

Additional observations from a re-analysis of the deposited data

How the results depend on the processing

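No paired analysis was possible because the peaks come from a single immunoprecipitated sample. The number of streak and mesoderm genes with a peak, 6 at 100 kb, was 3 at 25 kb. Their peaks, 12 at 100 kb, numbered 5 at 25 kb, 7 at 50 kb, 23 at 200 kb and 6 when peaks narrower than the median were left out. The share of protein-coding genes with a peak, 54.8%, was 21.4%, 35.2% and 74.7% at those 3 limits, 57.6% with the TSS of every transcript and 34.8% among the wider peaks. These moves follow from shorter or longer limits, more TSSs and fewer peaks. The peaks nearest to the 8 genes, 8 in all, were 3 when all annotated genes competed (2 of Gsc, 1 of Evx1) and 5 among the wider peaks (1 of Mesp1, 4 of Evx1). Peaks within 100 kb with a composite, octamer, Sox or Nanog core match, a group set after the values were seen, numbered 5, and 3 when 200 bp around the middle were searched; of all peaks 44.6% and 34.0% held one. Among the wider peaks the closest to Gsc lay at 39.9 kb and the closest to Mixl1 at 192 kb. The other alternatives run left these counts, taken over all 8 genes, within 1.5 times and the share within its interval. For single genes, Evx1 had 3 nearest peaks instead of 5 with the TSS of every transcript and with a nearest TSS at most 100 kb away, and Gsc had 1 instead of 2 with peaks merged within 300 bp. At most 3 mismatches raised the share of all peaks with a composite from 1.40% to 8.75%. A list without strength or depth cannot show sites below the threshold of the call.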

Other observations

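Nanog peaks were also placed beside regulators of the other germ layers. Of 10 endoderm regulators, 4 had a Nanog peak within 100 kb, beside 54.8% of protein-coding genes. The median closest distance of the 10 was 109.8 kb. The closest were at Hnf4a (4.25 kb), a hepatocyte and visceral endoderm factor, Hhex (33.7 kb) and Sox17 (49.3 kb). The median closest distance of 13 neuroectoderm regulators was 38.1 kb. Of them, 9 had a peak within 100 kb and 3 within 10 kb, beside 54.8% and 10.6% of protein-coding genes. These included Neurog2 (0.425 kb), a proneural factor, and Pax6 (8.62 kb), a factor of eye and forebrain. The lists were not tested against each other.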
